A study of Mus musculus with 12 samples.

Results

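The complement protein C1q and the receptors and bridging proteins by which phagocytes take up apoptotic cells were followed in sorted mouse fetal liver cells. The set has 10 genes out of 57055 gene identifiers in the deposited tables, and each was found once in both tables by its Ensembl identifier as named in GENCODE M21 (GRCm38). The genes are C1qa, C1qb and C1qc, the receptor tyrosine kinases Mertk, Axl and Tyro3, their ligands Gas6 and Pros1, the bridging protein gene Mfge8 and the scavenger receptor gene Cd36. RNA was sequenced in bulk from 12 libraries of E14.5 embryos in 4 groups of 3, with C57BL/6 given as the strain of the HSC libraries. These were macrophages (sorted as CD169+) from Vav-Cre positive Jag1 f/f embryos and from Vav-Cre negative Jag1 f/f embryos, and hematopoietic stem cells (HSCs) from Vav-Cre positive and from Vav-Cre negative Jag1 f/f embryos, sorted by CD45+, cKit+, Sca1+ and CD150+ staining without dead-cell dye, lineage markers or CD48. The genotype field calls the Cre negative HSC libraries WT, while their titles give Jag1 f/f. By the titles all embryos, the Cre negative ones included, carried floxed alleles of Jag1, the gene of a Notch ligand, and the Vav-Cre transgene drives recombination in blood cells. Since nothing in the labels ties a library to an embryo of its own, p-values measure only the spread between these libraries, which may be technical.

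Macrophages clear dying cells and the nuclei that red cell precursors expel, a process called efferocytosis. C1q, the recognition part of the first complement component, is built from A, B and C chains and binds to apoptotic cells, and tissue macrophages are its main source. MERTK, AXL and TYRO3 (the TAM receptors) do not touch the dying cell themselves: GAS6 and protein S, the product of Pros1, bind phosphatidylserine exposed on it and present it to them. MFG-E8 forms a similar bridge to the integrins αvβ3 and αvβ5, and CD36 takes up oxidised lipid and works with thrombospondin and these integrins. Endothelium, stellate cells, megakaryocytes and hepatocytes also express several of these genes, Pros1, Gas6 and Cd36 among them.

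Depth was 2602934 to 5366990 reads in Cre positive and 17230019 to 24658205 reads in Cre negative macrophage libraries, and 51982064 to 77463770 reads in HSC libraries. Levels are in CPM, a read count scaled to a common library total, with library sizes adjusted by TMM, an edgeR scaling that aligns the bulk of the genes. Jag1 measured 0, 10.6 and 6.79 CPM in Cre positive and 52.6, 21.1 and 26.3 CPM in Cre negative macrophage libraries. In the HSC sort it measured 10.5, 0 and 19.5 CPM in libraries labelled Cre positive and 6.53, 6.87 and 1.16 CPM in Cre negative ones, so Jag1 did not separate the HSC groups. Reads from exons outside the floxed part count too, and the gene bears on the labels only in part. The macrophage sort held 13201 to 18010 CPM of 19 endothelial markers in Cre positive and 9557 to 17357 CPM in Cre negative libraries, more than the 2757 to 5012 CPM and 2071 to 8286 CPM of 18 macrophage markers. The endothelial sum was the larger in each of the 6 libraries, and all 18 markers were detected in at least 1 library. For Adgre1 and Alb, replicate 1 of the Cre negative macrophage group stood apart. It held 22.3 CPM of Adgre1 (F4/80) where the other 5 libraries held 60.1 to 403 CPM, and 1707 CPM of the hepatocyte gene Alb where they held 77.1 to 232 CPM. For Siglec1, the gene of the sort marker CD169, it did not stand alone. Siglec1 measured 16.2, 102 and 67.7 CPM in Cre positive and 18.2, 115 and 117 CPM in Cre negative macrophage libraries, lowest in Cre positive replicate 1. In the HSC sort, 15 HSC and progenitor markers summed to 1882 to 2349 CPM in libraries labelled Cre positive. In Cre negative ones they summed to 1345 to 2702 CPM. In each HSC library this was below the 18 macrophage markers (2572 to 3806 CPM) and the 19 endothelial markers (8718 to 19180 CPM). Which cells the marker RNA and the member RNA of the HSC sort came from was not tested. In bulk samples, fewer cells of a type and less RNA per cell cannot be told apart. The 2 tables were made with different pipelines, so levels are not compared between the sorts.

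No member passed the test in either sort. In macrophages 0 of 10 members passed the quasi-likelihood test of edgeR, adjusted over 17806 genes by the Benjamini-Hochberg method. The share of all genes passing that test was 0%. DESeq2 called 0 members as well, beside 63 of all 17806 genes. At an unadjusted edgeR p under 0.05 stood 1 member, Axl, on the lower side, where 4.91% of all genes stood there. All 10 members passed the filter on low counts in both sorts. The fitted log2 fold change of Cre positive over Cre negative was below 0 for 9 of 10 members, with a median of -0.61, beside 56.1% of all genes and their median of -0.16. That general shift depends on the scaling: with DESeq2-style size factors the median of all genes was 0.04, and Tyro3 and Cd36 then lay above 0. In HSCs 0 of 10 members passed the edgeR test among 13962 genes (0% of all genes). DESeq2 called 0 members there, beside 135 of all 13962 genes. By edgeR 1 member, Cd36, had an unadjusted p under 0.05 on the lower side, where 3.97% of all genes stood. There 7 of 10 members lay below 0, with a median of -0.58, beside 50.3% of all genes and their median of -0.00.

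**Figure D1:**
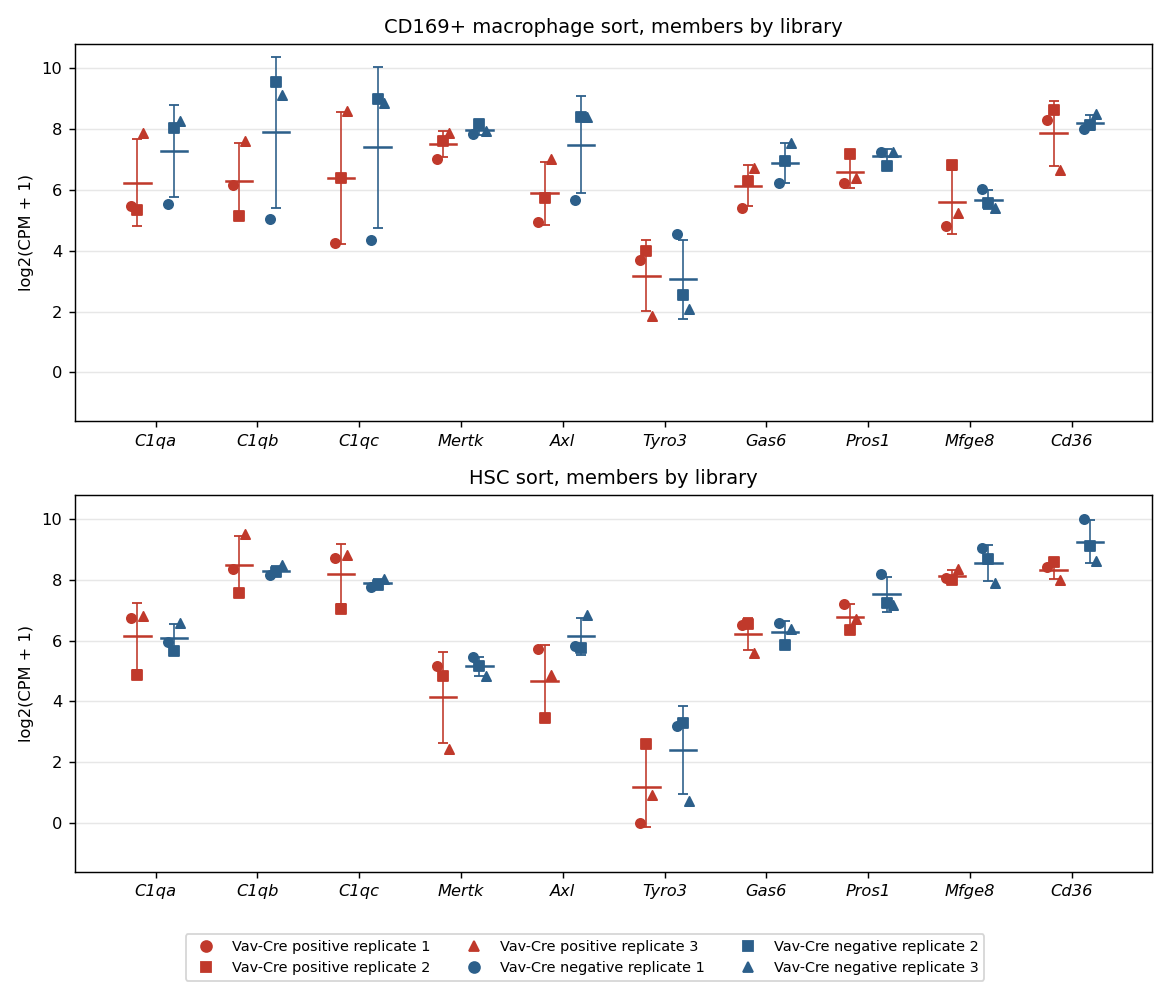
Levels of the 10 members as log2(CPM + 1) in each library of the macrophage sort (upper panel) and the HSC sort (lower panel). Cre positive libraries are red and stand left of the blue Cre negative ones, marker shapes give the replicate number, and lines with bars give the mean ± SD of 3 libraries on the log2 scale. In the macrophage sort no member separates the groups, and in the HSC sort Axl and Cd36 do.

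C1qa, C1qb and C1qc encode the A, B and C chains of C1q. They lie side by side on the minus strand of chromosome 4 (GRCm38), within 18675 bases: C1qb at chr4:136880129-136886187, C1qc at chr4:136889804-136893065 and C1qa at chr4:136895917-136898803. No other annotated gene overlaps them. The promoter windows of C1qb and C1qc, from 250 bases before to 50 bases after the transcription start, are shown because both neighbours were highest in the same 3 macrophage libraries, Cre positive replicate 3 and Cre negative replicates 2 and 3. The windows are from RefSeq (GRCm38.p6, minus strand, written 5′ to 3′ as transcribed). Capitals mark the letters AGGAAG on either strand (CTTCCT on the other), the core that ETS factors such as PU.1, the product of Spi1, recognise.
C1qb (chr4:136886151-136886450): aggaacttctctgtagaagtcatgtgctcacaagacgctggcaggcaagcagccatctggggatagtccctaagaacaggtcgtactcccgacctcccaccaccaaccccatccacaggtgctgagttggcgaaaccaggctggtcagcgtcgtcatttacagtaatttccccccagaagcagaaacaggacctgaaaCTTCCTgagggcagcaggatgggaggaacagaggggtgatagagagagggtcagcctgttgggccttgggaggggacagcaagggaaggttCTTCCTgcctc
C1qc (chr4:136892865-136893164): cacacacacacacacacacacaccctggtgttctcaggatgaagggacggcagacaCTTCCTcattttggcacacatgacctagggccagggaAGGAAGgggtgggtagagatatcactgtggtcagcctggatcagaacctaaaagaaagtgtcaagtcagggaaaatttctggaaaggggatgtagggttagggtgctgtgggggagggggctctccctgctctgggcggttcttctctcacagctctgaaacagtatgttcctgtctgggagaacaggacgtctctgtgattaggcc
Each window holds 2 matches, and 4 of the 9 members with a promoter window (all but C1qa) hold at least 1, the others being Axl and Mfge8. Of 32851 windows of this length, 35.4% hold this core.

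In the macrophage sort, C1q levels spread widely within both genotypes. C1qa measured 43.9, 39.8 and 235 CPM in Cre positive libraries, against 45.8, 264 and 308 CPM in Cre negative ones. Cre positive replicate 3 was nearest to Cre negative replicates 2 and 3, while Cre negative replicate 1 lay just above Cre positive replicates 1 and 2, and the groups overlapped. The log2 fold change of C1qa was -0.95 with a standard error (SE) of 0.82 and a 95% interval of -2.79 to 0.88 (edgeR unadjusted p = 0.272, adjusted p = 1.00). C1qb measured 70.2, 34.2 and 196 CPM in Cre positive libraries, against 31.9, 741 and 559 CPM in Cre negative ones. Its highest Cre positive library was below Cre negative replicates 2 and 3 and its lowest value was in Cre negative replicate 1. The log2 fold change of C1qb was -2.15 (SE 1.20, interval -5.11 to 0.81, unadjusted p = 0.125). C1qc measured 17.99, 82.4 and 382 CPM in Cre positive libraries, against 19.5, 513 and 461 CPM in Cre negative ones, a log2 fold change of -1.04 (SE 1.48, interval -4.80 to 2.72, unadjusted p = 0.514). The libraries therefore stood in a like pattern for all 3 chains, with Cre positive replicate 3 and Cre negative replicates 2 and 3 highest for each.

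In the macrophage sort the summed C1q level and the summed level of macrophage markers were high in the same 3 libraries. The 3 chains together took 132, 156 and 813 CPM in Cre positive libraries, against 97.1, 1518 and 1328 CPM in Cre negative ones. The 18 macrophage markers, which do not include C1q, took 2757, 2945 and 5012 CPM in Cre positive and 2071, 8286 and 6891 CPM in Cre negative libraries. The order of the 6 libraries was the same in both sums, and C1q was 4.79%, 5.31% and 16.2% of the marker sum in Cre positive libraries and 4.69%, 18.3% and 19.3% in Cre negative ones. Mrc1, the gene of the mannose receptor, which sinusoidal endothelium also expresses, weighed heavily in that sum. Without it, a choice made after seeing the data, the other 17 markers took 1351, 1292 and 3731 CPM in Cre positive and 785, 7112 and 5538 CPM in Cre negative libraries, so that Cre positive replicates 1 and 2 changed places. C1q was then 9.78%, 12.1% and 21.8% of the marker sum in Cre positive and 12.4%, 21.3% and 23.97% in Cre negative libraries. The part of macrophage markers in the C1q difference was not tested. Leaving out 1 library changed its size: without Cre positive replicate 3 the log2 fold changes of C1qa, C1qb and C1qc were -2.34 (adjusted p = 0.0724), -3.12 and -2.78. They were -1.42, -2.69 and -1.595 without Cre negative replicate 1, at adjusted p-values of 0.744, 0.356 and 1.00, and none passed. Over all 6 single libraries left out, the ranges were -2.34 to -0.56 for C1qa, -3.12 to -1.58 for C1qb and -2.78 to -0.59 for C1qc.

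In the HSC sort C1q RNA was present in every library. C1qa measured 106, 28.3 and 111 CPM in libraries labelled Cre positive, against 61.3, 50.1 and 95.7 CPM in Cre negative ones. C1qb measured 327, 189 and 721 CPM in those labelled Cre positive, against 283, 308 and 356 CPM in Cre negative ones, and C1qc 417, 131 and 454 CPM against 218, 227 and 261 CPM. The SDs of C1qa, C1qb and C1qc were 46.4, 276 and 177 CPM in libraries labelled Cre positive and 23.8, 37.2 and 22.7 CPM in Cre negative ones. The libraries labelled Cre positive lay on both sides of the Cre negative ones, with replicate 2 below and replicates 1 and 3 above for C1qa and C1qc. The log2 fold changes were 0.25 (SE 0.52), 0.38 (SE 0.44) and 0.50 (SE 0.42), with 95% intervals of -0.96 to 1.45, -0.62 to 1.39 and -0.46 to 1.47. The unadjusted p-values of edgeR were 0.650, 0.405 and 0.262 and its adjusted ones 0.996, 0.983 and 0.942. Without the replicate 3 labelled Cre positive the signs of C1qa and C1qb turned, at -0.04 and -0.29. Macrophage markers took 3806, 2572 and 3303 CPM in libraries labelled Cre positive and 3280, 2832 and 2954 CPM in Cre negative ones, and replicate 2 was lowest in both sums. Their part in the C1q levels was not tested. Adgre1 was found at 117, 32.1 and 51.0 CPM in libraries labelled Cre positive and at 127, 99.2 and 93.4 CPM in Cre negative HSC libraries, and Siglec1, the gene of CD169, 8.61, 0.898 and 0.218 CPM against 4.44, 3.18 and 0.521 CPM.

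**Figure D2:**
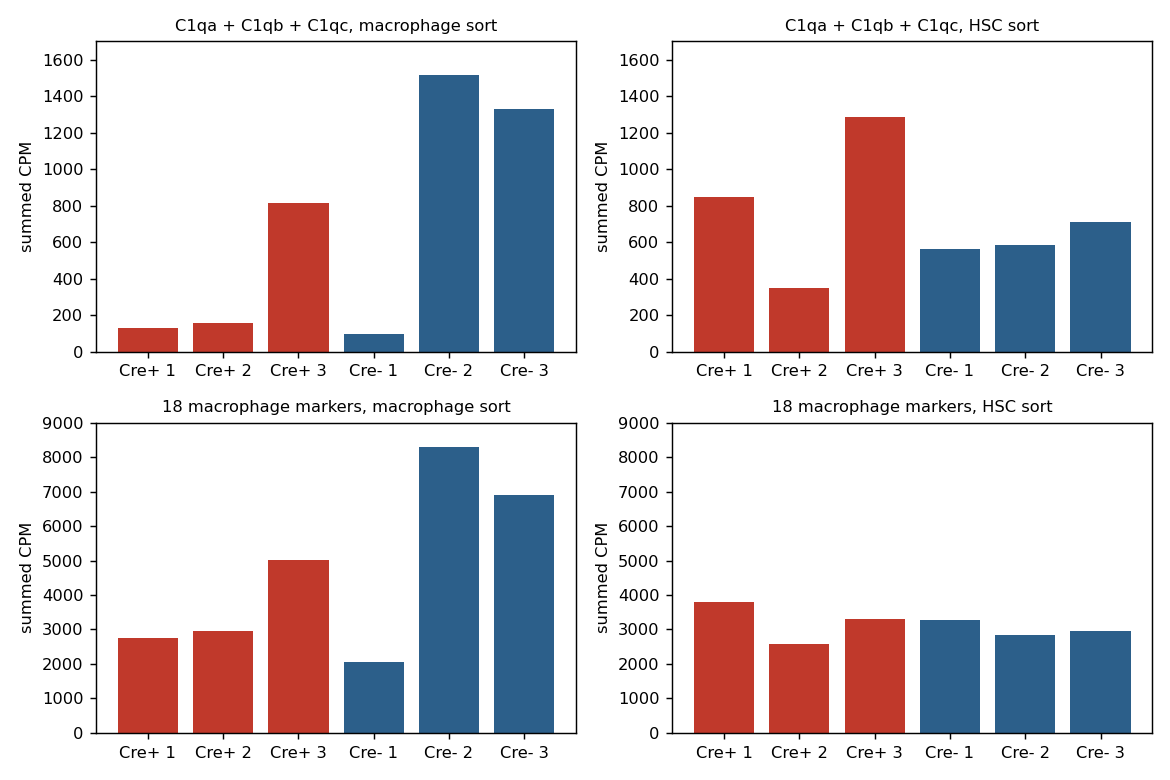
Summed level in CPM of C1qa, C1qb and C1qc (upper row) and of 18 macrophage markers (lower row) in each library of the macrophage sort (left) and the HSC sort (right), with Cre positive libraries in red and Cre negative ones in blue. In the macrophage sort both sums are highest in Cre positive replicate 3 and in Cre negative replicates 2 and 3.

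Per length, the rank of the 3 chains among protein-coding genes varied by chain and library. By CPM per kilobase of annotated exon, C1qb stood at positions 433, 1145 and 109 of 21922 in Cre positive macrophage libraries and at 1280, 32 and 45 in Cre negative ones. In HSC libraries it stood at 97, 280 and 30 of 21702 in those labelled Cre positive and at 167, 117 and 79 in Cre negative ones. C1qa stood between 76 and 875 in Cre positive and between 97 and 721 in Cre negative macrophage libraries, and C1qc between 88 and 4090 and between 110 and 4323. In HSC libraries labelled Cre positive C1qa stood between 518 and 2524 and C1qc between 165 and 948, and in Cre negative ones C1qa between 604 and 1402 and C1qc between 353 and 539. C1qb was the largest of the 3 in each of the 6 HSC libraries, with 48.6% to 65.9% of their summed CPM per kilobase in those labelled Cre positive and 59.1% to 63.0% in Cre negative ones. The share of C1qa was 10.1% to 16.5% and 10.7% to 16.6% there. These shares rest on annotated exon lengths of 1931 bases for C1qc and 1088 bases for C1qb. By CPM alone, C1qc exceeded C1qb in the HSC replicate 1 labelled Cre positive, at 417 and 327 CPM. In macrophage libraries the makeup was less even. C1qa had 36.4%, 34.1% and 37.4% in Cre positive libraries, against 52.8%, 21.2% and 28.2% in Cre negative ones. C1qc ranged from 8.03% in Cre positive replicate 1 to 38.0% in Cre positive replicate 2, and it had 12.1% to 22.8% in Cre negative libraries.

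Genes with the profile most like C1q were found by the root mean square difference, over the 6 libraries of a sort, between centred log2(CPM + 1) profiles and the mean profile of the 3 chains. In the macrophage sort, among 7217 protein-coding genes compared, these were the adhesion receptor gene Cd44 (0.33), the hexokinase gene Hk3 (0.36), the phagocyte lipid receptor gene Trem2 (0.37), the adaptor gene Fyb (0.40) and the phosphatidylserine receptor gene Timd4 (0.42), where the median gene stood at 1.77. Timd4 measured 21.2, 10.97 and 88.6 CPM in Cre positive and 7.36, 155 and 108 CPM in Cre negative libraries. Trem2 measured 3.96, 7.25 and 41.6 CPM in Cre positive and 3.88, 36.6 and 65.0 CPM in Cre negative libraries. Of the other members Axl was nearest, at 0.53, and Tyro3 farthest, at 2.61. In the HSC sort, among 8187 genes with a median of 0.73, the nearest included Cluh, Zfp710, Mindy2 and Tmco1, at 0.10 to 0.13. Zfp710, a zinc finger gene, measured 69.3, 25.8 and 91.8 CPM in libraries labelled Cre positive and 52.9, 50.1 and 58.0 CPM in Cre negative ones. These distances are descriptions over libraries that share 1 sort and its differences in depth and content.

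Mertk, on chromosome 2 (chr2:128698956-128802894, plus strand), encodes the TAM receptor that macrophages use most for apoptotic cells. It measured 130, 194 and 232 CPM in Cre positive macrophage libraries, against 227, 285 and 244 CPM in Cre negative ones. The groups overlapped, since Cre positive replicate 3 lay above Cre negative replicate 1, and the level varied far less than that of C1q. The log2 fold change was -0.44 (SE 0.36, interval -1.20 to 0.31, edgeR unadjusted p = 0.230, adjusted p = 1.00). In HSCs Mertk was at 34.5, 27.3 and 4.35 CPM in libraries labelled Cre positive and 42.8, 34.7 and 27.7 CPM in Cre negative ones (log2 fold change -0.67, SE 0.70, adjusted p = 0.981). An antisense gene, Gm14011, overlaps Mertk, and the library kit does not mark strand, so reads of the pair cannot be told apart.

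Axl, on chromosome 7 (chr7:25757273-25788705, minus strand), had the smallest unadjusted p of the members in macrophages and a fitted fold change below 0 in both sorts, without passing in either. It measured 29.9, 51.7 and 127 CPM in Cre positive macrophage libraries, against 49.8, 338 and 338 CPM in Cre negative ones. The low value of Cre negative replicate 1 made the groups overlap. The log2 fold change was -1.79 (SE 0.68, interval -3.27 to -0.31, edgeR unadjusted p = 0.0213, adjusted p = 0.773). In HSCs Axl measured 52.2, 9.91 and 28.4 CPM in libraries labelled Cre positive, against 55.2, 53.7 and 113 CPM in Cre negative ones. These groups did not overlap, though the nearest libraries were 1.46 CPM apart, and the log2 fold change was -1.29 (SE 0.61, interval -2.71 to 0.13, unadjusted p = 0.0691, adjusted p = 0.807). Lower levels without overlap were found in 2 of 10 members in HSCs, Axl and Cd36, where 9.33% of all genes tested had them, and 0 of 10 had higher levels without overlap, beside 6.37% of all genes. In macrophages 0 of 10 members had them, where 11.8% of all genes did, and 0 of 10 were higher without overlap, beside 2.27%. In macrophages the Axl difference was -2.27 without Cre negative replicate 1 (adjusted p = 0.277) and -2.62 without Cre positive replicate 3 (adjusted p = 0.195), and with no filter on low counts its adjusted p was 0.0872. The HSC value was -1.95 without the replicate 1 labelled Cre positive, and -0.85 without Cre negative replicate 3. Of the stellate and mesenchymal markers tested, 12 of 14 lay below 0 in macrophages, beside 56.1% of all genes, with a median of -1.89. In HSCs 13 of 15 did, beside 50.3% of all genes, with a median of -1.06. Lower levels without overlap were found in 5 of 14 and 1 of 15, and 0 passed in either sort. The part of these markers in the Axl differences was not tested.

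Tyro3, on chromosome 2 (chr2:119797733-119818104, plus strand), was the scarcest member by group mean in both sorts. It measured 11.9, 15.1 and 2.61 CPM in Cre positive and 22.2, 4.90 and 3.27 CPM in Cre negative macrophage libraries, and 0, 5.13 and 0.914 CPM in HSC libraries labelled Cre positive against 8.19, 8.82 and 0.667 CPM in Cre negative ones. The library at 0 could have held up to 0.0561 CPM, the level of 3 counts, by counting error alone. Its intervals, -3.68 to 3.59 in macrophages and -6.71 to 3.61 in HSCs, left the direction undetermined.

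Per length, Mertk made up 79.2%, 77.9% and 67.5% of the 3 TAM receptors in Cre positive macrophage libraries, against 79.6%, 49.1% and 45.4% in Cre negative ones. Axl made up 15.7%, 17.9% and 31.9% against 15.0%, 50.3% and 54.1%. Cre negative replicates 2 and 3 thus held as much or more Axl than Mertk per kilobase, and the other 4 libraries mostly Mertk. In HSCs Axl made up 56.6%, 21.7% and 83.1% in the libraries labelled Cre positive and 49.5%, 53.1% and 77.5% in Cre negative ones.

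**Figure D3:**
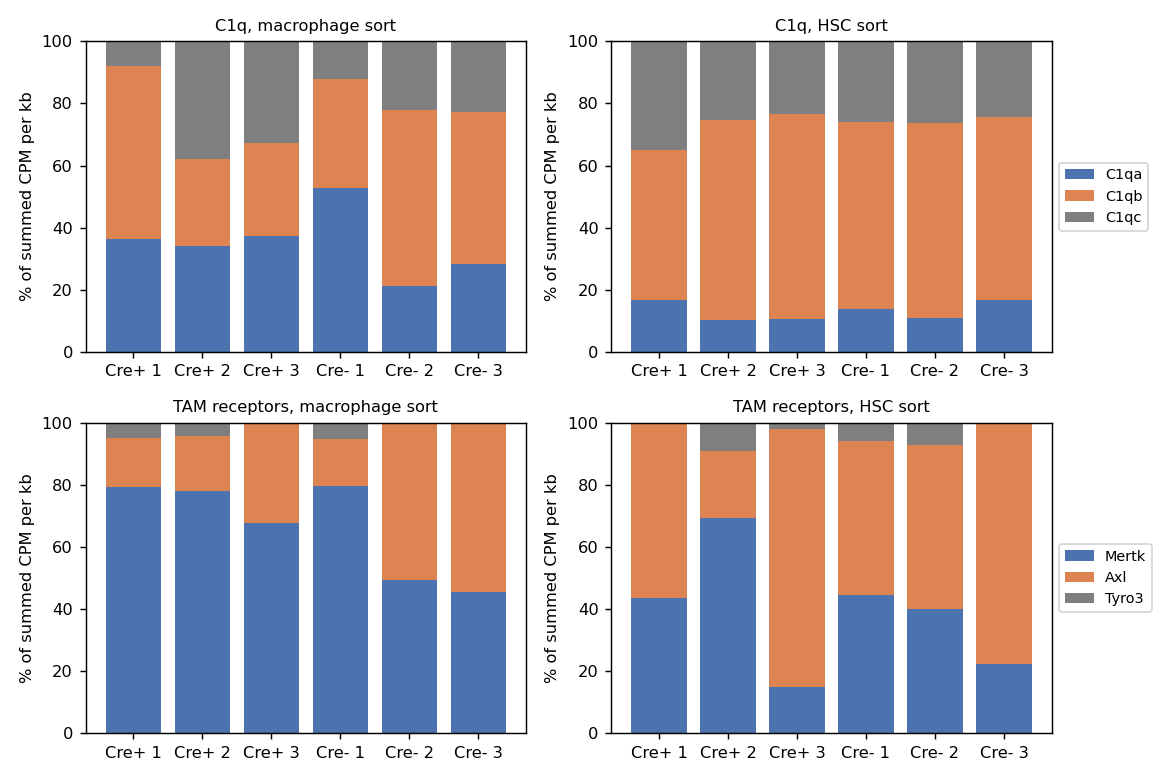
Share of each gene in the summed CPM per kilobase of its set, in percent, for the C1q chains (upper row) and the TAM receptors (lower row), by library of the macrophage sort (left) and the HSC sort (right). Cre positive libraries stand left of Cre negative ones. C1qb has the largest share of C1q in all 6 HSC libraries, and Mertk has over 67.5% of TAM receptors in the 3 Cre positive macrophage libraries.

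Gas6, on chromosome 8 (chr8:13465374-13494490, minus strand), encodes the ligand that activates all 3 TAM receptors. It measured 41.7, 77.3 and 105 CPM in Cre positive macrophage libraries, against 73.4, 123.1 and 184 CPM in Cre negative ones. Cre positive replicates 2 and 3 lay above Cre negative replicate 1, and the log2 fold change was -0.77 (SE 0.50, interval -1.82 to 0.29, edgeR unadjusted p = 0.143). In HSCs it measured 91.2, 91.7 and 47.3 CPM in libraries labelled Cre positive and 94.2, 57.3 and 83.3 CPM in Cre negative ones, a log2 fold change of -0.03 with an interval of -0.85 to 0.79. The gene Tmem255b on the other strand overlaps Gas6, so a few reads could belong to it.

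Pros1, on chromosome 16 (chr16:62854307-62929346, plus strand), encodes protein S, a ligand of MERTK and TYRO3 that is also an anticoagulant. It measured 73.4, 146 and 82.8 CPM in Cre positive macrophage libraries, against 151, 111 and 152 CPM in Cre negative ones (log2 fold change -0.45, SE 0.44, edgeR unadjusted p = 0.314). In HSCs it measured 148, 80.8 and 104 CPM in libraries labelled Cre positive, against 290, 149 and 142 CPM in Cre negative ones. The groups overlapped only by the replicate 1 labelled Cre positive, and the log2 fold change was -0.80 (SE 0.36, interval -1.63 to 0.03, unadjusted p = 0.0558, adjusted p = 0.788). Without Cre negative replicate 1 it was at its smallest, -0.40. Per length, Gas6 had 47.7%, 46.0% and 66.9% of the 2 ligands in Cre positive macrophage libraries, against 43.8%, 64.1% and 66.1% in Cre negative ones.

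Mfge8, on chromosome 7 (chr7:79133768-79149060, minus strand), encodes the bridge between phosphatidylserine and αv integrins. It measured 27.0, 111 and 36.5 CPM in Cre positive macrophage libraries, against 64.0, 47.0 and 41.6 CPM in Cre negative ones. Cre positive replicate 2 alone was above the Cre negative libraries, and the log2 fold change was 0.19 (SE 0.66, interval -1.20 to 1.59), the only one of the 10 above 0. Without that library it was -0.71. In HSCs Mfge8 was at 268, 256 and 323 CPM in libraries labelled Cre positive and 532, 414 and 236 CPM in Cre negative ones (log2 fold change -0.48, SE 0.30, edgeR unadjusted p = 0.145, adjusted p = 0.876).

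Cd36, on chromosome 5 (chr5:17781690-17888801, minus strand), encodes a scavenger receptor that macrophages, endothelium and platelets carry. It measured 313, 397 and 99.4 CPM in Cre positive macrophage libraries, against 255, 282 and 362 CPM in Cre negative ones, a log2 fold change of -0.15 with an interval of -1.04 to 0.74. Cre positive replicate 3, the highest Cre positive library for C1q, was the lowest for Cd36. In HSCs it measured 344, 380 and 254 CPM in libraries labelled Cre positive, against 1033, 555 and 395 CPM in Cre negative ones. The groups did not overlap, with 15.3 CPM between the nearest libraries, and the log2 fold change was -1.02 (SE 0.36, interval -1.84 to -0.20, edgeR unadjusted p = 0.0212, adjusted p = 0.697). Without Cre negative replicate 1 it was -0.55 (adjusted p = 1.00). That library also held the most endothelial marker RNA, 19180 CPM, where the other Cre negative HSC libraries held 12320 and 9014 CPM and those labelled Cre positive 9486, 8718 and 11995 CPM. Cd36, Pros1 and Mfge8 were each highest in it. The part of these marker genes in the differences was not tested, nor was which cells their RNA came from. The 11 megakaryocyte markers summed to 1129, 603 and 741 CPM in the HSC libraries labelled Cre positive and 529, 767 and 876 CPM in Cre negative ones.

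**Figure D4:**
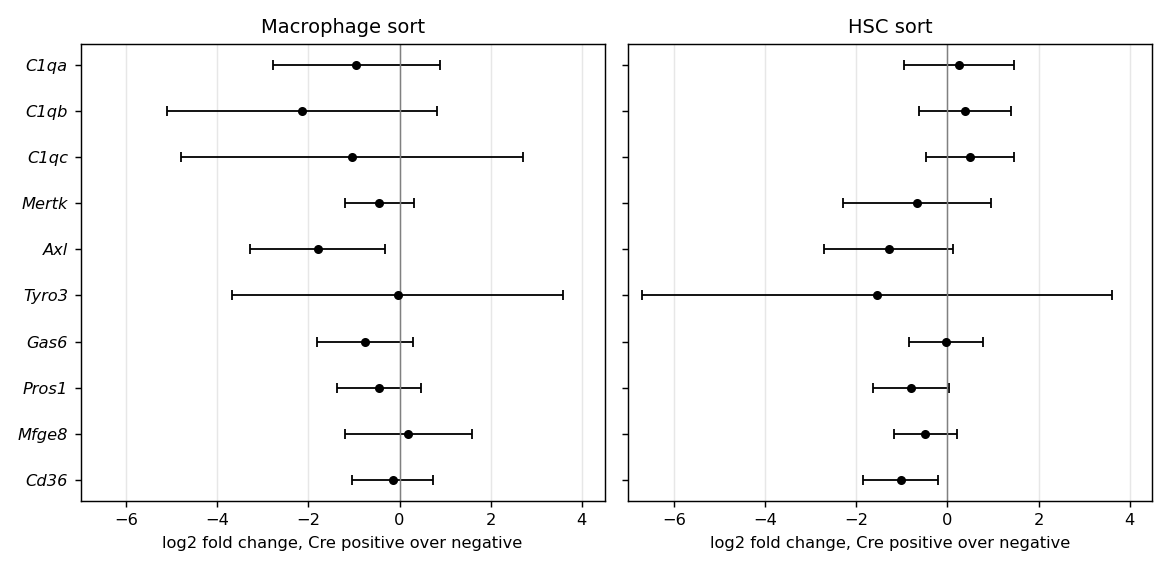
Log2 fold change of Cre positive over Cre negative libraries for the 10 members in the macrophage sort (left) and the HSC sort (right), from edgeR's quasi-likelihood fit, with 95% intervals (3 libraries per group). The unadjusted interval leaves out 0 for Axl in macrophages and for Cd36 in HSCs, and neither passes after adjustment over all genes.

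Whether the genotype effects differ between the sorts was tested as an interaction over all 12 libraries. Of 20128 genes, 14 passed (0.0696%) and 0 of the 10 members did. The difference of log2 fold changes, macrophages minus HSCs, was -2.51 for C1qb (SE 1.35, edgeR unadjusted p = 0.0927, adjusted p = 0.666), -1.19 for C1qa and -1.52 for C1qc. For Axl it was -0.49 (SE 0.97, adjusted p = 1.00) and for Cd36 0.86 (SE 0.58, adjusted p = 0.769). These data thus did not show that any member responded differently in the 2 sorts, and did not show that it responded alike.

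Other receptors and bridging molecules of efferocytosis had no passing gene among 20 tested of 22 in macrophages and 19 tested in HSCs. In macrophages 12 of 20 had a log2 fold change below 0, beside 56.1% of all genes, with a median of -0.35 beside -0.16 over all genes. An unadjusted p under 0.05 was found for 4 of 20, each on the lower side, beside 4.91% of all genes there. Itgb5, the β chain of integrin αvβ5 that binds MFG-E8, measured 39.9, 22.9 and 47.7 CPM in Cre positive libraries, against 37.5, 282 and 254 CPM in Cre negative ones (log2 fold change -2.38, SE 0.62, edgeR adjusted p = 0.773). Itgav, its α chain, measured 33.5, 70.8 and 44.4 CPM against 70.4, 105 and 171 CPM (-1.22, SE 0.53, adjusted p = 0.784). Cre negative replicate 1 lay within the Cre positive range for both integrin genes. Cd300lf, a phosphatidylserine receptor gene of myeloid cells, had 0 reads in Cre positive libraries and 3.01, 7.003 and 17.3 CPM in Cre negative ones (log2 fold change -9.82, SE 3.56, edgeR adjusted p = 0.773). In the shallower Cre positive libraries 3 counts were 0.522 to 1.08 CPM, and with 0 reads there the counts do not fix the size of the Cd300lf fold change. The genes of the stabilins, whose products also bind phosphatidylserine and are typical of sinusoidal endothelium, were also listed: Stab1 measured 1892, 2007 and 1979 CPM in Cre positive and 2547, 1428 and 1742 CPM in Cre negative macrophage libraries. In HSCs the median of this list was 0.18, and the galectin 3 gene Lgals3 measured 128, 102 and 169 CPM in libraries labelled Cre positive against 58.4, 66.3 and 91.6 CPM in Cre negative ones (0.88, SE 0.30, adjusted p = 0.689).

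The engulfment machinery, which remodels actin and matures the phagosome, had 0 of 18 genes passing in either sort, with medians of 0.01 in macrophages and -0.31 in HSCs. Dock1, an activator of RAC1, measured 519, 543 and 522 CPM in Cre positive macrophage libraries, against 390, 316 and 287 CPM in Cre negative ones, without overlap (0.67, SE 0.30, edgeR adjusted p = 0.823). Of the 18 genes 1 was higher and 1 lower without overlap in macrophages, beside 2.27% and 11.8% of all genes. In HSCs 1 was higher and 3 lower without overlap, beside 6.37% and 9.33% of all genes. The lysosomal gene Lamp1 measured 161, 231 and 306 CPM in Cre positive and 235, 568 and 623 CPM in Cre negative macrophage libraries, and the cholesterol exporter gene Abca1 232, 375 and 455 CPM against 259, 841 and 908 CPM. In HSCs the genes with the smallest p were Ptk2, a focal adhesion kinase, at 74.9 ± 4.68 CPM in libraries labelled Cre positive and 139 ± 11.4 CPM in Cre negative ones (SD, n = 3 each; log2 fold change -0.89, edgeR adjusted p = 0.689), Elmo2, the partner of DOCK1, and Lamp1 again, at 481 ± 72.5 and 720 ± 147 CPM.

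Signals that attract phagocytes or restrain them had 0 passing of 11 genes in macrophages and of 12 in HSCs, with medians of 0.08 and -0.04. The fractalkine receptor gene Cx3cr1 measured 5.40, 29.2 and 61.3 CPM in Cre positive macrophage libraries, against 52.2, 190 and 209 CPM in Cre negative ones (log2 fold change -2.23, SE 0.74, edgeR adjusted p = 0.773). In HSCs it lay the other way, at 48.4, 35.8 and 15.5 CPM in libraries labelled Cre positive and 16.4, 5.75 and 18.04 CPM in Cre negative ones (1.31, SE 0.65, adjusted p = 0.820). Sirpa, the receptor of the restraining signal CD47, measured 236, 203 and 297 CPM in Cre positive and 249, 571 and 408 CPM in Cre negative macrophage libraries.

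Nuclear receptors and lineage factors known to act in mouse macrophages had 0 of 10 passing in both sorts. In macrophages 9 of 10 lay below 0, beside 56.1% of all genes, with a median of -1.25 beside -0.16. Nr1h3, the gene of the oxysterol receptor LXRα, measured 12.2, 9.11 and 2.44 CPM in Cre positive macrophage libraries, against 0.753, 81.4 and 47.2 CPM in Cre negative ones (log2 fold change -2.45, SE 1.30, edgeR adjusted p = 1.00). Pparg measured 0.360, 4.83 and 0 CPM in Cre positive and 44.9, 15.6 and 6.09 CPM in Cre negative libraries, without overlap (-3.66, SE 1.96, edgeR unadjusted p = 0.0792). Its values of 0.360 and 0 CPM lay below the level of 3 counts, which was 0.522 to 1.08 CPM in the shallower Cre positive libraries. Lower levels without overlap were found in 2 of 10 genes of this list, beside 11.8% of all genes. In HSCs the median was -0.01, and 1 of 10 genes, Pparg, was lower without overlap, beside 9.33% of all genes. It was at 5.30, 19.0 and 7.01 CPM in libraries labelled Cre positive and 24.9, 21.0 and 26.8 CPM in Cre negative ones (edgeR adjusted p = 0.854).

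Of the complement genes that act with C1q, 0 of 16 tested passed in macrophages and 0 of 18 in HSCs. The proteases that C1q activates were scarce: C1ra measured 0, 0 and 0.348 CPM in Cre positive and 14.8, 2.43 and 4.84 CPM in Cre negative macrophage libraries (edgeR adjusted p = 0.964). These Cre positive values lay below the level of 3 counts, 0.522 to 1.08 CPM in those libraries. In HSC libraries labelled Cre positive C1ra measured 0.374, 0 and 0 CPM, against 11.6, 3.26 and 6.46 CPM in Cre negative ones (edgeR adjusted p = 0.806). In macrophages 14 of 16 genes of this list lay below 0, with a median of -1.44, beside the same 56.1% and -0.16 of all genes. The properdin gene Cfp measured 34.5, 6.69 and 6.61 CPM in Cre positive and 8.92, 158 and 130 CPM in Cre negative macrophage libraries, and the C3a receptor gene C3ar1 21.6, 5.76 and 45.6 CPM against 19.2, 83.9 and 190 CPM. The macrophage marker list itself lay below 0 in 16 of 18 genes, with a median of -1.08. C3 was at 7.92, 5.21 and 45.1 CPM in Cre positive libraries, against 506, 54.9 and 30.1 CPM in Cre negative ones, highest in the library that also held the most hepatocyte RNA. In HSCs Cd55, a membrane inhibitor of complement, measured 166, 128 and 124 CPM in libraries labelled Cre positive and 294, 199 and 173 CPM in Cre negative ones (-0.67, SE 0.26, edgeR adjusted p = 0.771). Masp1, a protease gene of the lectin pathway, measured 38.8, 30.2 and 44.5 CPM against 64.8, 61.2 and 56.7 CPM. Masp2 had 0 reads in HSC libraries labelled Cre positive and 2.05 to 3.45 CPM in Cre negative ones (edgeR adjusted p = 0.689). Of this list 6 of 18 genes were lower without overlap in HSCs, beside 9.33% of all genes. There 13 of 18 lay below 0, with a median of -0.67, beside 50.3% of all genes. In macrophages 2 of 16 were lower without overlap, beside 11.8% of all genes.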

How the data were processed

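Both tables, with 32285 identifiers for HSCs and 56980 for macrophages, hold raw counts of reads as the authors deposited them. For HSCs, STAR 2.7.6a, featureCounts, Subread 2.0.1 and GRCm38 are named, per the submitters' processing notes. For macrophages only mm10 is named, and the counting tool is not given in the sources used here. Per the labels' protocols, 2000 HSCs or 1000 to 3000 macrophages were sorted and SMART-Seq v4 libraries made, which do not mark strand. Each table was fitted with edgeR 4.0.16 in R 4.3.3 (filterByExpr, TMM, robust glmQLFit and glmQLFTest), with a Benjamini-Hochberg adjusted p under 0.05 over all genes kept, and the interaction over the 32210 shared identifiers. The code was tested on simulated data. Each SE is the log2 fold change divided by the root of F. CPM per kilobase uses the summed exon length of GENCODE M21. A level of 3 counts was 0.0386 to 0.0561 CPM in HSC, 0.522 to 1.08 CPM in Cre positive and 0.138 to 0.174 CPM in Cre negative macrophage libraries, for counting error only. Chi-square per degree of freedom between replicates was 56.9 to 844, so none was counted as a second deposit. Columns without a sample numbered 0.

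The members and lists were chosen with earlier results of these data known. Named genes were the 10 members, Jag1, marker levels, up to 3 genes per list with the smallest p, and the 5 genes most like C1q per sort with a mean of at least 20 CPM. Timd4 and Stab1 were also given values, Stab1 and C1ra being chosen after theirs were seen. Alternatives were 3 other scalings, no filter, DESeq2 1.42.0, thinning to equal depth, the replicate number as a block, and leaving out each library. A gene that this rule names, and a motif searched beside the ETS core, are not reported here.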

Additional observations from a re-analysis of the deposited data

How the results depend on the processing

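No member passed under any alternative run, the smallest adjusted p being 0.0724 in macrophages (C1qa without Cre positive replicate 3) and 0.160 in HSCs (Cd36 with DESeq2). Counts of passing genes over the whole table, 0 in each sort, moved in macrophages to 21 with no filter, 63 with DESeq2 and 13 with the replicate block, and to 1 to 34 when 1 library was left out. In HSCs they moved to 135 with DESeq2 and stayed at 0 when 1 library was left out. The interaction count of 14 became 9 with upper-quartile scaling, 107 with no filter, 747 with DESeq2 and 96 with the replicate block, and 6 to 210 when 1 library was left out.

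Directions turned for 6 of the 20 fitted member values, and the cause was not tested. In macrophages Tyro3 was at 0.11 with DESeq2-style size factors, 0.10 with upper-quartile scaling, 0.077 on library totals, 0.11 with DESeq2, 0.10 with the replicate block, 0.059 after thinning and -0.53 to 1.27 when 1 library was left out. Cd36 was at 0.0351, 0.0123, 0.0511, 0.035 and 0.0199 under these 3 scalings, DESeq2 and thinning, and -0.56 to 0.19 when 1 library was left out. Mfge8 was at -0.068 with the replicate block and -0.71 to 0.48 when 1 library was left out. In HSCs Gas6 was at 0.0327 on library totals and -0.21 to 0.22, C1qa at -0.041 to 0.65 and C1qb at -0.29 to 0.73 when 1 library was left out. C1qa, C1qb, C1qc, Mertk, Axl, Gas6 and Pros1 in macrophages and C1qc, Mertk, Axl, Tyro3, Pros1, Mfge8 and Cd36 in HSCs kept their sign under all alternatives run. Libraries with the same replicate number did not deviate together (correlations of -0.0334 to 0.0268 over genes), so the numbers were not taken to pair them. Depth limits Tyro3 most, with 15 to 81 reads in Cre positive macrophage libraries.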

Other observations

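Macrophage markers did not all have 1 pattern in the macrophage sort. Mrc1 measured 1406, 1654 and 1281 CPM in Cre positive libraries and 1286, 1174 and 1353 CPM in Cre negative ones. Adgre1 measured 60.1, 60.2 and 70.8 CPM in Cre positive libraries, against 22.3, 403 and 375 CPM in Cre negative ones. The scavenger receptor gene Marco was at 104, 30.7 and 84.2 CPM in Cre positive and 0, 415 and 222 CPM in Cre negative macrophage libraries. Cd163, the gene of the haemoglobin scavenger receptor, was highest in Cre positive replicate 3, at 17.6, 5.39 and 129 CPM in Cre positive and 19.8, 62.0 and 22.8 CPM in Cre negative libraries. Vcam1, an adhesion gene of macrophages and endothelium, measured 162, 76.4 and 93.8 CPM in Cre positive and 123.1, 207 and 100.4 CPM in Cre negative libraries. Of the 18 markers, 2 had a log2 fold change above 0, Mrc1 at 0.19 and Cd163 at 0.54. Mrc1, Marco, Cd163 and Vcam1 were chosen after their values were seen.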
